A study of Mus musculus with 8 samples.

Results

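The cadherins and protocadherins are calcium-dependent adhesion proteins of the cell surface, and their messenger RNAs were followed here in embryonic mouse kidneys. The genes were chosen by name and by level: gene rows named Cdh with a number, or starting with Pcdh, were taken when their normalized count (an estimated read count divided by a size factor that corrects for library depth) reached at least 10 in at least 4 of the 8 libraries. Of 87 rows with such a name, 73 met the level, among 21291 gene rows of which 14977 met it. Nearest inside the limit were Pcdha12, for which the lowest of its 4 highest libraries held 15.4 normalized counts, and Pcdhb10, with 15.8. Nearest outside by the same measure were Cdh20, with 8.20, and Pcdha5, with 6.64. The 14 genes left out were Cdh7, Cdh17, Cdh18, Cdh19, Cdh20, 8 of the Pcdha genes numbered 1 to 11, and Pcdhac2. Of the 73 members, 10 did not reach the level in all 8 libraries.

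Polyadenylated RNA came from kidney pairs of mouse embryos at E14.5, with 4 mutant and 4 control libraries, each from a separate pair. Mutant embryos were Six2-GFPcre tg/+, Etv4-/- and Etv5fl/fl, and control embryos were Six2-GFPcre tg/+, Etv4+/- and Etv5fl/fl. Both groups therefore carried the Cre transgene, which acts in nephron progenitors and their descendants, and both carried the homozygous floxed Etv5 allele, while the Etv4 null allele was not restricted to those cells. The series asks what the loss of Etv4 and Etv5, related ETS-family transcription factors, from nephron progenitors does to kidney gene expression. By the alleles given, the groups differed only at Etv4, so comparing them does not show what the loss of Etv5 does.

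Classical cadherins bind their like on neighbouring cells and are tied to actin through catenins. Type I members such as E-cadherin (Cdh1) and N-cadherin (Cdh2) form strong junctions, and type II members include VE-cadherin (Cdh5) of blood vessels. As a nephron forms, mesenchymal cells that carry Cdh11 and Cdh2 become an epithelium, in which Cdh6 marks early tubule segments, Cdh4 is made in the early nephron, and Cdh1 and the kidney-specific cadherin Cdh16 mark maturing tubules. Protocadherins are more loosely tied to the cytoskeleton. The clustered ones give single cells an identity code that is best known in neurons.

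The targeted genes were read first. Etv4 (chr11:101769742-101785371) had 295, 282, 220 and 165 normalized counts in mutants 1 to 4, against 2832, 2819, 2832 and 2324 in controls 1 to 4, which is -3.51 ± 0.18 (SE) as a log2 fold change (adjusted p = 2.62e-05 by limma). Etv5 had 2672, 2391, 1968 and 1496 in mutants, against 3457, 4108, 3951 and 3023 in controls, and its fold change, -0.79 ± 0.17 (SE) on the log2 scale, missed the threshold (adjusted p = 0.106 by limma). Etv5 passed in 3 of 24 other fits, with the smallest adjusted p from limma with library weights (0.00919). The groups did not overlap for either gene.

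Total estimated counts ran from 35308934 to 38824018 in mutants and from 15515139 to 39548327 in controls. The lowest total was that of control 4, where Lars2 alone took 18.4%, against at most 0.476% in any other library, and many values below are therefore given with and without it. Ddx3y, on the Y chromosome, was at 0 in every mutant library and between 1561 and 1638 in controls, so sex and genotype cannot be told apart. The 6 nephron progenitor markers summed to 2605 to 8160 in mutants and 14612 to 28831 in controls, and 2 of them, Crym and Osr1, passed the limma threshold. The 6 early nephron markers summed to 17981 to 20435 in mutants and 10893 to 15751 in controls, with 0 of 6 past it. In whole kidneys, fewer cells of a type and less RNA per cell cannot be told apart.

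None of the 73 cadherins and protocadherins passed the threshold, an adjusted p of 0.05 by limma over 14977 genes, in either direction. The smallest adjusted p was 0.154, that of Cdh6. Across all genes tested, 12 were higher in mutants (0.0801%) and 33 were lower (0.22%). At an unadjusted p under 0.05 there were 5 members higher and 2 lower in mutants, beside 6.34% and 5.72% of all genes tested. The groups did not overlap for 2 members that were higher in mutants, Cdh6 and Cdh13, and for 2 that were lower, Cdh11 and Pcdhgc4, beside 4.17% and 4.43% of all genes.

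Fold changes were positive for 53 members and negative for 20, with a median log2 fold change of 0.24 over the members and 0.01 over all genes. That split rested on control 4. Without that library 34 were positive and 39 negative, with a median of -0.03, and 19 members took the other sign. Library weights gave 32 positive and 41 negative, and analysis with no depth correction gave 67 and 6 while it moved the median of all genes to 0.48.

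**Figure D1:**
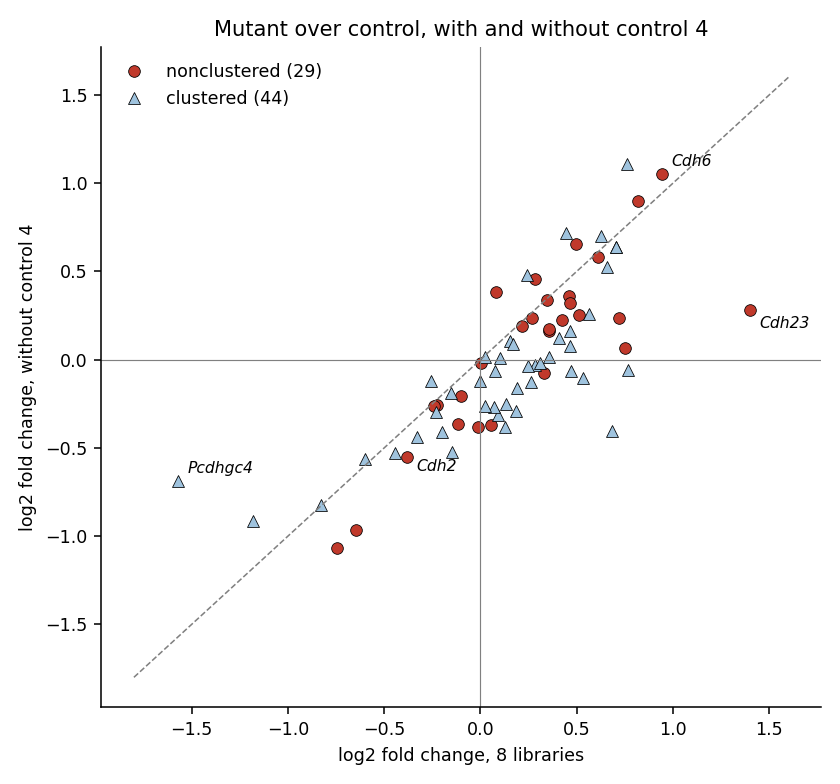
Each point is a gene, with its log2 fold change of mutant over control in all 8 libraries on the horizontal axis and without control 4 on the vertical axis; the dashed line marks equal values. Circles are the 29 nonclustered members and triangles the 44 clustered ones, 16 of which were positive without control 4, against 32 with it.

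Cdh6 (chr15:13028701-13173675, minus strand), the type II cadherin of early nephron segments, had 2164, 2087, 3391 and 4408 normalized counts in mutants 1 to 4, against 1233, 1702, 1269 and 1859 in controls 1 to 4. Every mutant lay above every control, and mutants 3 and 4 were highest. The means were 3013 ± 1106 in mutants and 1516 ± 313 in controls (SD, n = 4 each), a log2 fold change of 0.94 with a 95% interval of 0.40 to 1.49, which did not pass (limma adjusted p = 0.154). With library weights it did pass, at 0.92 (limma adjusted p = 0.0191), in a fit that called 4.99% of all genes in either direction. The library names tie mutants 1 and 2 to controls 1 and 2 by a shared number of unstated meaning, and mutant 4 to control 4. Within these sets the log2 differences of mutants from controls were 0.55 and 1.25. Without control 4 the fold change was 1.05 (limma adjusted p = 0.0827).

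The promoters of the 3 members with the smallest p, Cdh6, Pcdh7 and Cdh11, were looked up because Etv4 and Etv5 belong to the ETS family, whose proteins bind DNA around a GGAA core. RefSeq on GRCm38.p6 gave entries for 18 members, among them the first 2 of these. Each stretch runs from 250 bases before the gene's RefSeq start to 50 bases after it, 5′ to 3′ on the gene's strand. GGAA and its reverse complement TTCC are in capitals. For Cdh6 that start is also the start of the gene position given above. For Pcdh7 it lies downstream of the start of the gene position given below, chr5:57717967.
Cdh6, chr15:13173626-13173925, minus strand: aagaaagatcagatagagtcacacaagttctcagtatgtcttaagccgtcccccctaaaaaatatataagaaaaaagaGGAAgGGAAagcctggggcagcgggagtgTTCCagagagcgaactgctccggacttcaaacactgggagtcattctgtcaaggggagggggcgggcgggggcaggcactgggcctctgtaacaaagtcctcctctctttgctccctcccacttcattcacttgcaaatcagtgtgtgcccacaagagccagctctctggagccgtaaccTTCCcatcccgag
Pcdh7, chr5:57717831-57718130, plus strand: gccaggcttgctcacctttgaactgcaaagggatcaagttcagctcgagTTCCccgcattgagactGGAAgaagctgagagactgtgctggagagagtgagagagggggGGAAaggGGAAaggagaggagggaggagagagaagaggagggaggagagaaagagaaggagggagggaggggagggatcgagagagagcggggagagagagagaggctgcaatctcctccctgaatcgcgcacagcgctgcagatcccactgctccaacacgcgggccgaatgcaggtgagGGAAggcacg
The Cdh6 stretch holds 4 such matches and the Pcdh7 stretch 5, counted on both strands. A match is common, since 96.0% of 32851 promoters of the same length hold 1 or more. Counted by gene rather than by promoter, 15 of the 18 members with an entry hold a match. The longer form CCGGAA, or TTCCGG on the other strand, which contains the core, was in 14.9% of promoters and in 0 of the 18. CAGGTG, or CACCTG, an E-box bound by Snai and Zeb repressors, was in 20.2% of promoters and in 2 of the 18, Pcdh7 among them. A match describes letters only, and no binding was measured here.

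Among the other early nephron cadherins, Cdh4 and Cdh2 had fold changes of opposite sign, and neither passed. Cdh4 (R-cadherin) had 5189, 4695, 4857 and 3903 normalized counts in mutants, against 4291, 4066, 4094 and 2402 in controls, or 0.36 ± 0.18 (SE) on the log2 scale (adjusted p = 0.472 by limma). The groups overlapped through mutant 4, and without control 4 the fold change was 0.16. Cdh2, the N-cadherin of the progenitors and of early epithelium, had 3734, 3786, 3091 and 2465 in mutants, against 5665, 3889, 4770 and 2957 in controls. Its log2 fold change was -0.38 (limma adjusted p = 0.498), and -0.55 without control 4 (limma adjusted p = 0.141), while without control 1 it was -0.24. Control 4 was the lowest control for both genes. With no depth correction the sign of Cdh2 turned, to 0.09.

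Cdh11, the mesenchymal type II cadherin (chr8:102632095-102785642), was the steadiest of these genes within groups. It had 7703, 7984, 8239 and 7649 normalized counts in mutants and 9881, 9247, 9200 and 8561 in controls. Every mutant lay below every control, and the means were 7894 ± 273 in mutants and 9222 ± 539 in controls (SD, n = 4 each). The fold change, -0.22 on the log2 scale (95% interval -0.38 to -0.06), did not pass (limma adjusted p = 0.242), nor did -0.26 without control 4 (limma adjusted p = 0.0818). With library weights Cdh11 passed, at -0.23 (limma adjusted p = 0.0317). With no depth correction its fold change was 0.25, against a median of 0.48 over all genes. The 6 stromal markers, which belong to a compartment that also makes Cdh11, summed to 103754 to 106842 in mutants and 51641 to 135354 in controls. Most of each sum was Col1a1 alone, at 80017 to 84786 in mutants and from 33924 in control 4 to 110897 in control 1. The nephron progenitor markers, of mesenchyme that also carries Cdh11 and Cdh2, summed lower in mutants without overlap. They gave 2605 to 8160 in mutants and 14612 to 28831 in controls. The part of the stromal and progenitor markers in the Cdh11 and Cdh2 values was not tested.

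The epithelial cadherins Cdh16 and Cdh1 were highest in the same libraries. Cdh16 (chr8:104601911-104624396) had 6307, 6541, 9639 and 12237 normalized counts in mutants, against 3921, 6439, 5901 and 8286 in controls. Cdh1 (chr8:106603351-106670246) had 3403, 3418, 5722 and 7075 in mutants, against 2575, 4308, 3530 and 5458 in controls. For both genes mutants 3 and 4 were the highest mutants, control 4 was the highest control, and the groups overlapped. The log2 fold changes were 0.49 for Cdh16 (SE 0.26, limma adjusted p = 0.491) and 0.28 for Cdh1 (SE 0.28, limma adjusted p = 0.73), and which library was left out moved both. That of Cdh1 ran from 0.085, without mutant 4, to 0.46, without control 4, and that of Cdh16 from 0.29, without control 1, to 0.66, without control 4. The summed counts of the 6 proximal tubule markers were high in those libraries as well. They were 1280, 1393, 4484 and 10237 in mutants 1 to 4 and 535, 1264, 950 and 3880 in controls 1 to 4. Not every marker followed the sum, since Aqp1, at 507 in mutant 3, was lowest there among mutants. The pattern was not particular to proximal tubule. The 5 podocyte markers summed to 5094, 4719, 9657 and 13175 in mutants and 2910, 3960, 3404 and 6257 in controls. The 5 loop and distal markers summed to 1083, 1226, 1605 and 2044 in mutants and 546, 990, 692 and 1773 in controls. The early nephron sum differed, as its lowest mutant value, 17981, was in mutant 4. The part of these marker lists in the Cdh6, Cdh16 and Cdh1 values was not tested. P-cadherin, Cdh3 (chr8:106510891-106557297), is another type I member of epithelia and had 2204, 2233, 2126 and 1839 in mutants, against 2132, 2801, 2651 and 2382 in controls. Control 1 fell within the mutant range, and the fold change, -0.24 ± 0.11 (SE) on the log2 scale, missed the threshold (adjusted p = 0.395 by limma). The ureteric bud markers, of a second epithelium in the kidney, summed to 12082 to 19014 in mutants and 17401 to 24042 in controls.

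**Figure D2:**
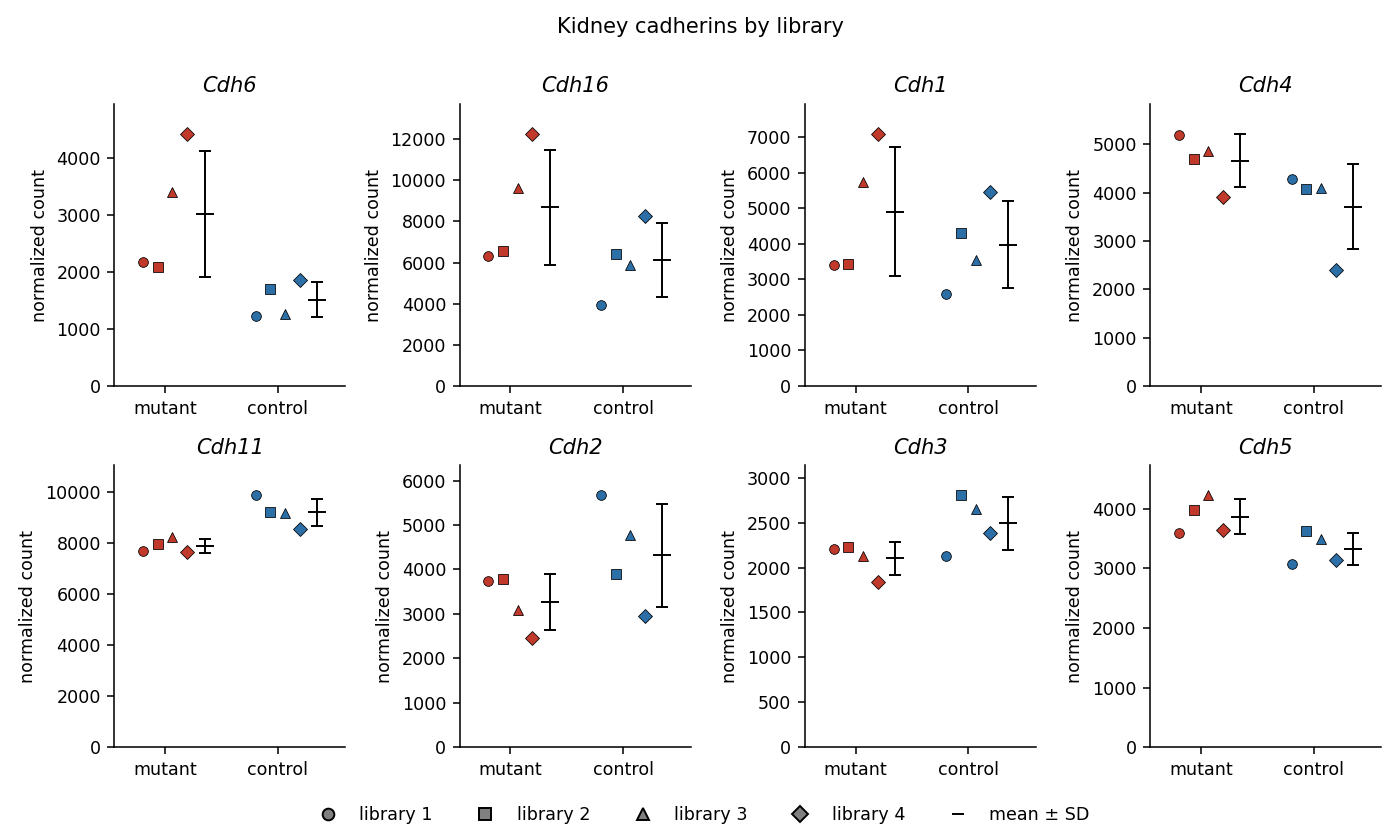
Normalized counts of 8 cadherins in each library, mutants left and controls right, each panel from 0; symbols are libraries 1 to 4 and bars the mean ± SD (n = 4 each). Mutants lie wholly above controls for Cdh6, from 2087 upwards, and wholly below them for Cdh11, up to 8239, and the groups overlap in the other 6 panels.

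The endothelial members had positive fold changes that did not pass. Cdh5 (VE-cadherin) had 3595, 3984, 4219 and 3646 normalized counts in mutants, against 3068, 3621, 3482 and 3139 in controls, or 0.21 ± 0.09 (SE) on the log2 scale (adjusted p = 0.355 by limma). Only control 2 reached the mutant range. Pcdh12, a protocadherin of endothelial junctions, had 1022, 959, 885 and 797 in mutants, against 687, 949, 714 and 704 in controls (log2 fold change 0.27, limma adjusted p = 0.451), again with control 2 alone inside the mutant range. The 6 endothelial markers summed to 17732 to 20433 in mutants and 11330 to 15797 in controls, with a positive fold change for 6 of 6 and 0 past the threshold, and their part in the Cdh5 and Pcdh12 values was not tested.

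Ratios between cadherins within a library do not depend on its scaling. The 9 pairs were picked after the values were seen, so they are described without a test, and the groups did not overlap in 4. Cdh6 per Cdh1 was 0.636, 0.611, 0.593 and 0.623 in mutants, against 0.479, 0.395, 0.359 and 0.341 in controls, or 0.616 ± 0.0184 in mutants and 0.393 ± 0.0611 in controls (SD, n = 4 each). All mutants, whether high or low in both genes, lay within a narrow range above the controls. Cdh6 per Cdh16 was 0.319 to 0.360 in mutants and 0.215 to 0.314 in controls, a much smaller gap between the groups. Cdh16 per Cdh1 was 1.85, 1.91, 1.68 and 1.73 in mutants, against 1.52, 1.49, 1.67 and 1.52 in controls. Mutant 3 and control 3 nearly met there. Cdh6 per Cdh11 was 0.281, 0.261, 0.412 and 0.576 in mutants, against 0.125, 0.184, 0.138 and 0.217 in controls. This gap had to follow, since Cdh6 lay wholly higher and Cdh11 wholly lower in mutants, so it is no further result. Cdh1 per Cdh2 overlapped, at 0.911, 0.903, 1.85 and 2.87 in mutants and 0.455, 1.11, 0.740 and 1.85 in controls. As Cdh2 belongs to early epithelium as well as to progenitors, this ratio does not set epithelium against progenitors.

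**Figure D3:**
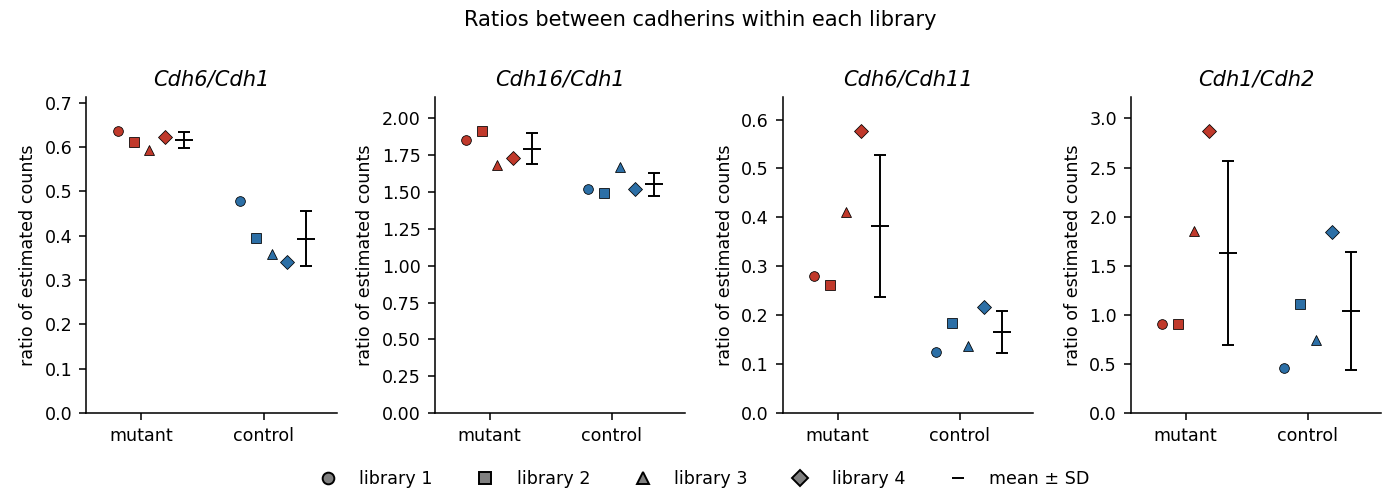
Ratios of estimated counts within each library for 4 pairs of cadherins, mutants left and controls right, each panel from 0; symbols are libraries 1 to 4 and bars the mean ± SD (n = 4 each). The mutants, at 0.593 to 0.636, sit above the controls for Cdh6 per Cdh1, while Cdh1 per Cdh2 overlaps.

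The other Cdh genes had fewer counts than the kidney cadherins above. Cdh13 (T-cadherin, held in the membrane by a GPI anchor) had 67.3, 67.3, 87.6 and 106 normalized counts in mutants, against 50.9, 29.4, 52.5 and 52.9 in controls, with no overlap (log2 fold change 0.82, SE 0.29, limma adjusted p = 0.29). Cdh15, the M-cadherin of muscle, had 124, 121, 46.4 and 54.8 in mutants, against 144, 129, 200 and 64.0 in controls (log2 fold change -0.65, limma adjusted p = 0.589, and -0.96 to -0.40 with 1 library left out). Skeletal muscle markers summed to 2648 in mutant 2 and to 46.0 to 123 in the other mutants, against 173 to 242 in controls, and their part in the Cdh15 values was not tested. Cdh24 averaged 637 ± 111 in mutants and 683 ± 117 in controls, and Cdh22 averaged 111 ± 59.4 in mutants and 75.7 ± 18.8 in controls. Cdh8, Cdh9 and Cdh10, type II cadherins best known from the brain, had means of 80.9, 26.6 and 47.8 in mutants and 86.6, 19.8 and 34.9 in controls. None of these 5 passed, with limma adjusted p from 0.556 to 0.975. Cdh8 turned to -0.37 without control 4, against 0.06 with it. Cdh23, of hair-cell tip links, and Cdh26 are named after their values were seen: Cdh23 averaged 33.0 ± 21.7 in mutants and 17.3 ± 14.9 in controls, with a log2 fold change of 1.4 that was 0.28 without control 4, in which it was at 0. Cdh26 averaged 41.8 ± 5.31 in mutants and 28.5 ± 13.6 in controls, with a log2 fold change of 0.72 that was 0.24 without control 4.

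Set per kilobase of the longest coding transcript and averaged over the 8 libraries, Cdh16 was the highest member, at 2535 normalized counts per kilobase, followed by Pcdhgc3 at 1722, Cdh11 at 1516 and Cdh1 at 1001. Cdh5 stood at 899.7, Cdh2 at 784, Cdh4 at 655 and Cdh3 at 524, and Cdh6 at 277 on that scale. The lowest was Pcdh15, at 2.12. These levels order the genes within one tissue and say nothing of which cells hold the RNA.

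Of the 10 delta protocadherins, which are single genes outside the clusters, 8 had positive fold changes, 6 without control 4, and 0 passed. Pcdh7 (chr5:57717967-58133230) had the smallest p of them, with 2463, 2050, 2358 and 1851 normalized counts in mutants, against 1433, 1910, 1757 and 1277 in controls. Control 2 alone reached above mutant 4, and the fold change was 0.46 ± 0.14 (SE) on the log2 scale (adjusted p = 0.231 by limma). Pcdh9 had 234, 222, 262 and 332 in mutants, against 276, 115, 162 and 159 in controls, so control 1 lay among the mutants (log2 fold change 0.61, limma adjusted p = 0.385). Pcdh19, which is on the X chromosome, had 1886, 1761, 1465 and 1290 in mutants, against 1583, 1272, 1173 and 646 in controls. Its log2 fold change was 0.51 (limma adjusted p = 0.455), and 0.25 without control 4. Pcdh1 averaged 2039 ± 380 in mutants and 1546 ± 428 in controls, and Pcdh17 averaged 1161 ± 202 in mutants and 919 ± 215 in controls. For both, control 4 was the lowest library, and their log2 fold changes of 0.43 and 0.36 were 0.22 and 0.17 without it. Pcdh18, the delta protocadherin highest per kilobase, was level, at 2226 ± 316 in mutants and 2206 ± 109 in controls, with a 95% interval of -0.24 to 0.25 for its log2 fold change. Pcdh8 averaged 239 ± 61.8 in mutants and 265 ± 87.9 in controls, and Pcdh10 averaged 113 ± 38.2 in mutants and 111 ± 56.2 in controls. Pcdh20 averaged 58.0 ± 44.0 in mutants and 37.6 ± 17.8 in controls. Pcdh11x, also on the X chromosome, averaged 84.0 ± 28.5 in mutants and 88.9 ± 42.2 in controls. Pcdh15, the partner of Cdh23 in hair cells, averaged 14.9 ± 7.93 in mutants and 23.6 ± 8.52 in controls (log2 fold change -0.75, limma adjusted p = 0.656), and its fold change was -0.27 without mutant 2.

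**Figure D4:**
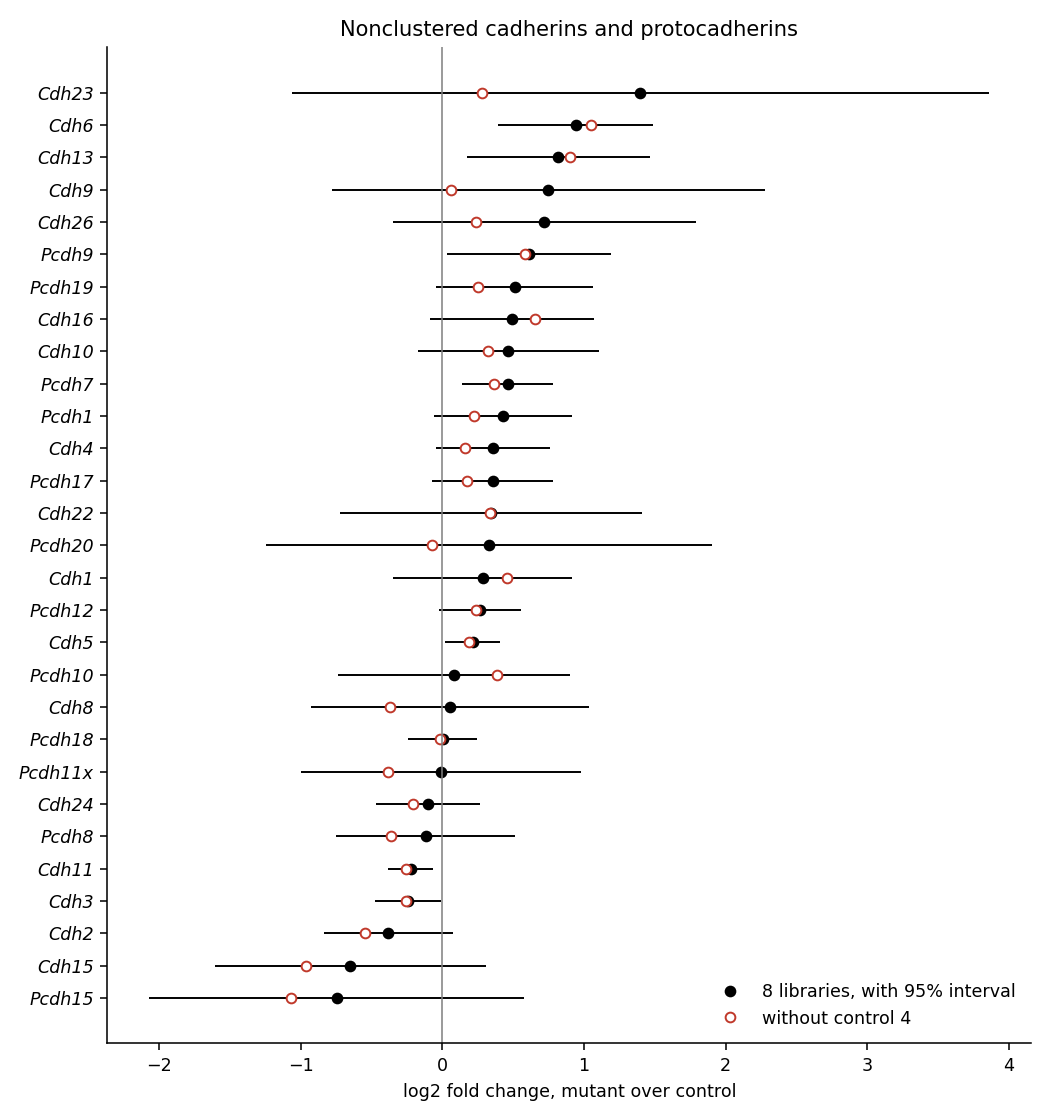
Log2 fold change of mutant over control for the 29 nonclustered members, ordered by size; filled points are from 8 libraries with limma 95% intervals, and open points are without control 4. Cdh6 lies at 0.94 with an interval above 0, Cdh11 at -0.22 with an interval below 0, and Cdh23 at 1.4 has an interval that spans 0.

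The clustered protocadherins make up 44 of the 73 members, on chromosome 18, with 2 alpha, 21 beta and 21 gamma genes, and 0 passed. Each alpha or gamma gene has a first exon of its own joined to exons shared by its cluster, and all 21 gamma genes end between positions 37841870 and 37841873, so how reads of the shared exons were divided between them is uncertain. Summed over all 11 alpha genes of the table, most of them under the level limit, alpha gave 55.8 to 81.4 normalized counts in mutants and 47.7 to 87.1 in controls. Beta, whose genes are single exons, gave 1664 to 2217 in mutants and 1748 to 2030 in controls. Gamma gave 12102 to 14020 in mutants and 11262 to 15542 in controls. The groups overlapped in every sum. Control 4 was the lowest library for 25 of the 44 (56.8%), and for 25.4% of all genes tested.

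Within the gamma cluster, Pcdhgc3, a member expressed widely outside the brain, held 60.3% to 62.0% of the counts in mutants, 59.2% to 65.7% in controls 1 to 3 and 37.9% in control 4. Its normalized counts were 8479, 7779, 7983 and 7498 in mutants, against 9875, 9500, 9194 and 4266 in controls. In controls 1 to 3 it lay above every mutant, and in control 4 it lay below every mutant. The log2 fold change was 0.03 (limma adjusted p = 0.978) with all libraries and -0.26 without control 4 (limma adjusted p = 0.0861). Pcdhgc4 had 307, 264, 274 and 232 in mutants, against 497, 337, 487 and 4969 in controls, so mutants lay below controls without overlap, and control 4 stood far above the rest. Its share of gamma counts was 1.92% to 2.19% in mutants, 2.31% to 3.31% in controls 1 to 3 and 44.1% in control 4. On the log2 scale this was -1.57 ± 0.71 (SE, adjusted p = 0.418 by limma), and -0.69 ± 0.17 without control 4 (adjusted p = 0.087 by limma).

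Over all 21 gamma genes the log2 fold changes ran from -1.57 to 0.70, 16 of them positive, and without control 4 from -0.69 to 0.64, 6 of them positive. After Pcdhgc4 the smallest p were those of Pcdhgb2 and Pcdhga11. Pcdhgb2 had 175, 105, 311 and 197 normalized counts in mutants, against 150, 85.2, 127 and 96.9 in controls (log2 fold change 0.70, limma adjusted p = 0.428, and 0.45 without mutant 3). Pcdhga11 had 468, 513, 325 and 185 in mutants, against 198, 186, 378 and 166 in controls (log2 fold change 0.66, limma adjusted p = 0.498). Both overlapped. Pcdhgb7, among the 3 highest gamma genes on average, had 842, 739, 715 and 573 in mutants, against 818, 533, 703 and 228 in controls (log2 fold change 0.47, and 0.08 without control 4). Pcdhgb6, picked out after its values were seen, varied more within groups than between them, at 799.9, 749, 347 and 335 in mutants, against 332, 614, 1225 and 167 in controls. The 19 gamma genes other than Pcdhgc3 and Pcdhgc4 summed to 4372 to 5234 in mutants and 4655 to 5861 in controls 1 to 3, with 2026 in control 4.

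**Figure D5:**
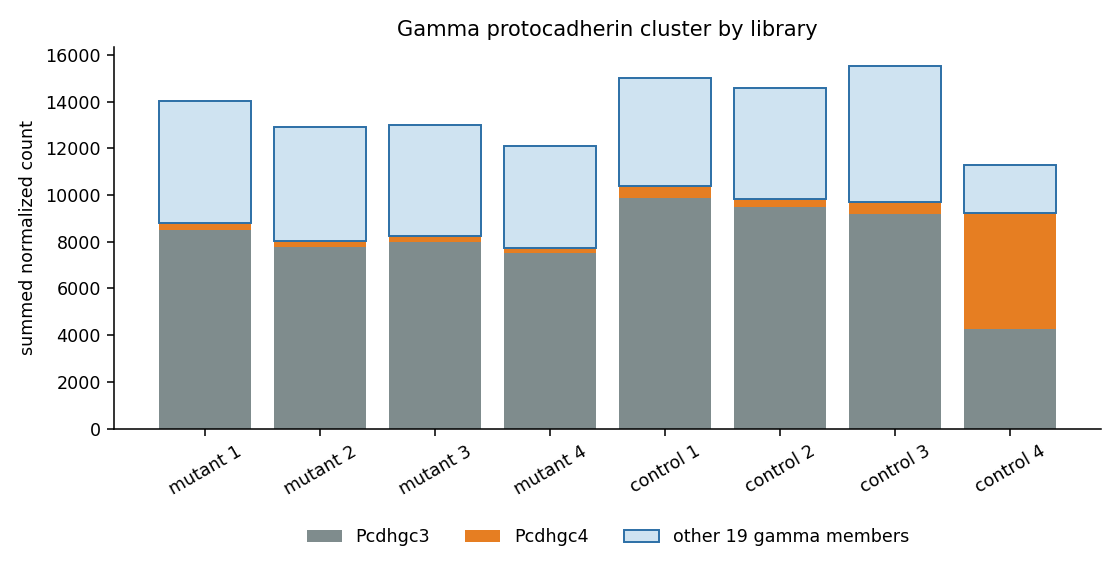
Summed normalized counts of the gamma protocadherin cluster in each library, stacked as Pcdhgc3, Pcdhgc4 and the 19 other genes, mutants left and controls right. Pcdhgc4 takes 44.1% of the bar in control 4 and at most 3.31% in any other library.

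Beta genes were low, with means over the 8 libraries from 17.0 to 282 normalized counts, and 15 of 21 had positive fold changes, over a log2 range of -0.83 to 0.77, against 10 of 21 and -0.82 to 1.11 without control 4. The smallest p were those of Pcdhb18, at 112 ± 19.5 in mutants and 80.7 ± 33.6 in controls, Pcdhb5, at 38.1 ± 8.80 in mutants and 61.0 ± 25.4 in controls, and Pcdhb8, at 70.6 ± 23.8 in mutants and 45.8 ± 18.5 in controls. Limma adjusted p was 0.536 or more for every beta gene. The highest were Pcdhb22, at 267 ± 37.5 in mutants and 298 ± 48.9 in controls, Pcdhb19, at 194 ± 39.8 in mutants and 226 ± 21.7 in controls, and Pcdhb17, at 204 ± 20.9 in mutants and 190.4 ± 28.1 in controls. The 2 alpha genes measured, Pcdha4 and Pcdha12, were near the level limit. Pcdha12 had 0, 0, 4.77 and 35.8 in mutants, against 17.9, 17.2, 0 and 15.4 in controls. Pcdha4 averaged 15.3 ± 6.21 in mutants and 14.7 ± 10.4 in controls, and was at 0 in control 4.

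The authors' deposited table lists 644 genes, among them 3 of the 73 members (4.11%), beside 4.05% of all genes tested here. In the authors' deposited table the log2 fold change was 1.10 for Cdh6 (adjusted p = 0.0237), -0.54 for Cdh2 (adjusted p = 0.0163) and -0.70 for Pcdhgc4 (adjusted p = 0.00798). Another name in it, Pcdha5, was too low to be a member, and the authors' deposited table gives it 6.72 (adjusted p = 0.00686). Here it had 6.64, 29.4, 32.5 and 0 normalized counts in mutants, against 0, 0, 0 and 40.3 in controls. The mean counts in the authors' deposited table matched, within 1%, means over the 7 libraries other than control 4 for 99.7% of 628 genes paired by symbol, and means over all 8 for 0.478%. Without control 4, the fits here gave 1.05, -0.55 and -0.69 for Cdh6, Cdh2 and Pcdhgc4.

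Of 55 genes listed as partners of cadherins in adhesion or as their regulators, 42 were measured and 1 passed, as lower in mutants. Fold changes were positive for 31 and negative for 11, and without control 4 for 28 and 14. Over all 14977 genes tested, 7742 were positive and 7235 negative, and 0.0801% passed as higher and 0.22% as lower. Fat3, a giant cadherin of the Fat family that acts in cell polarity, fell to 551, 591, 619 and 514 normalized counts in mutants, against 1368, 1224, 1311 and 893 in controls. On the log2 scale this was -1.06 ± 0.14 (SE, adjusted p = 0.0171 by limma), with no overlap. Leaving out 1 library moved the limma adjusted p between 0.00125, without control 4, and 0.0985, without control 3. It stayed under 0.05 without control 2 or control 4, and missed it without each of the other 6 libraries. Among 5 desmosome genes, all with positive fold changes, desmoplakin (Dsp), which anchors keratin filaments, had 2551, 2453, 3804 and 3262 in mutants, against 1322, 1801, 1829 and 1130 in controls. It did not overlap and did not pass (log2 fold change 0.99, limma adjusted p = 0.0748), but passed with library weights, at 0.76 (limma adjusted p = 0.0204). Plakophilin 2 (Pkp2) averaged 508 ± 101 in mutants and 380 ± 58.8 in controls, and did not pass (limma adjusted p = 0.375).

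Plakoglobin (Jup), a catenin shared by desmosomes and adherens junctions, averaged 4738 ± 534 in mutants and 3987 ± 169 in controls, and Plekha7, an adherens junction protein, averaged 467 ± 94.6 in mutants and 349 ± 75.4 in controls. These had the smallest p of 11 catenins and cytoplasmic partners, with limma adjusted p of 0.319 and 0.418. Nectin1, a junctional immunoglobulin protein, averaged 701 ± 116 in mutants and 1027 ± 217 in controls (log2 fold change -0.54, limma adjusted p = 0.273), and Nectin3 averaged 1934 ± 155 in mutants and 1765 ± 187 in controls. The 6 repressors of Cdh1 transcription that were measured had 3 positive and 3 negative fold changes, with a median of 0.03 on the log2 scale, and 0 passed. Zeb1, picked out after its values were seen, averaged 2094 in mutants and 3073 in controls (log2 fold change -0.48, limma adjusted p = 0.466). Zeb2 and Snai2 had the smallest p, and Zeb2 had 2581, 2181, 3249 and 2838 in mutants, against 1620, 1926, 2029 and 2535 in controls (log2 fold change 0.42, limma adjusted p = 0.307). Snai2 had 1390, 1530, 1558 and 1351 in mutants, against 986, 1112, 1002 and 1550 in controls, with control 4 among the mutants. Its log2 fold change was 0.35 (limma adjusted p = 0.362), and without control 4 it passed at 0.50 (limma adjusted p = 0.0352). The fit without control 4 called 1 partner higher, Snai2, and 2 lower, with Fat3 among the lower. The authors' deposited table also lists Fat3 at -1.19, Dsp at 0.87 and Zeb2 at 0.55.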

How the data were processed

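Kidney pairs at E14.5 gave 8 polyA-selected libraries, 4 mutant and 4 control, grouped by title. The submitters' processing notes name build mm10 and the tools DESeq2 1.40.2, kallisto 0.46.0 and fastp 0.23.2, without settings. The deposited log2 values are log2 of an estimated count plus 1 without depth correction: 67.8% of those above 0 gave whole numbers within 1e-06. The authors' deposited table holds a mean normalized count (signal), log2 fold change with SE, a test statistic (score) and p-values.

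Estimated counts were divided by median-of-ratios size factors, from 0.359 in control 4 to 1.26 in control 2. Log2(normalized count + 1), which understates changes of low genes, was tested with limma 3.58.1 in R 4.3.3 (lmFit, eBayes with trend, genotype alone, two-sided). Benjamini-Hochberg adjustment covered 14977 genes with at least 10 in at least 4 libraries, at a threshold of 0.05. Members and lists were chosen with earlier results of these data known. Named genes were Etv4, Etv5, all members outside the clusters except Cdh23 and Cdh26, 3 per cluster by smallest p and 3 by highest mean, and from each partner list those past the threshold or the 2 with smallest p; Cdh23, Cdh26, Pcdhgb6 and Zeb1 were added after their values were seen. Gene positions are those of GENCODE M21 for GRCm38 (the assembly also called mm10). The fit was tested on simulated counts, drawn at the real library depths but with no library made to depart from its group as control 4 did. Alternatives covered filters, pseudocount, scaling, variance model, blocks and libraries left out; voom without control 4 was added after seeing the data. Litters are not given in the labels.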

Additional observations from a re-analysis of the deposited data

Results flagged for a closer look

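In 102 groups of 4 libraries, over the named genes, 11 values stood apart from the other 3 libraries of their group by Dixon's test, where chance sets apart about 5.0% of groups. Control 4 gave 4 of them: 2324 normalized counts of Etv4, 2402 of Cdh4 and 4266 of Pcdhgc3 were lowest among controls, and 4969 of Pcdhgc4 was highest. Control 2 gave 949 for Pcdh12, the highest control, and 29.4 for Cdh13 and 705 for Nectin1, the lowest controls. Control 3 gave 378 for Pcdhga11, the highest control, and 0 for Pcdha12, the lowest. Mutant 4 gave 41.5 for Pcdh11x, the lowest mutant, and 35.8 for Pcdha12, the highest.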

How the results depend on the processing

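Each member had 24 other fits, or 23 for the 17 that fell under the filter of 50, and 32 of the 73 had the same sign in all of theirs while 41 changed sign in 1 or more. No member passed except with library weights, which called 1 higher (Cdh6) and 1 lower (Cdh11). The count of all genes called higher and lower, 12 and 33, was 3 and 8 with total-count scaling, 62 and 18 with no depth correction, 7 and 21 without trend, 333 and 415 with library weights, 58 and 127 without both libraries numbered 4, 3 and 16 with libraries 1 and 2 of each group only, and 32 and 105 with voom and no control 4. With voom the higher count was 20. Leaving out 1 library gave 0 to 56 higher and 8 to 114 lower. The largest counts were without control 4, and the cause was not tested.

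Deviations of same-numbered mutant and control libraries correlated at 0.27, 0.10, -0.13 and 0.35 for numbers 1 to 4. Between mutants and controls of unlike number the correlations ran from -0.31 to 0.23. The values for replicate numbers 1 and 4 lay above the range of all pairs of unlike number, and those for 2 and 3 lay within it. Whether the replicate numbers mark true pairs was not tested. With the replicate number as a block, 45 genes were higher and 88 lower, with 0 members, and 1 adhesion partner, Dsp, was called higher. Partners called lower were 0 with total-count scaling, with or without Lars2, with no depth correction and without trend, and 2 with library weights, without both libraries numbered 4 and with voom and no control 4. Partners called higher were 3 with library weights, and 1 without both libraries numbered 4 and with voom and no control 4. Leaving out 1 library gave 0 to 1 partners higher and 0 to 2 lower.

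Among the 40 members named by rule, the log2 fold changes that changed sign were these, none of them past the threshold there. With no depth correction, Cdh2 was at 0.088, Cdh11 0.25, Cdh3 0.23, Cdh24 0.37, Pcdh8 0.35, Pcdh11x 0.44, Pcdhb22 0.32 and Pcdhb19 0.23. With total-count scaling Pcdh11x was at 0.12, Pcdh8 at 0.015 and Cdh24 at 0.030, and without Lars2 Pcdh11x was at 0.048. With the library number as a block, Pcdh11x was at 0.025, Pcdh8 0.089, Pcdh18 -0.034, Pcdh10 -0.16 and Pcdh20 -0.033. With voom, Cdh8 was at -0.16 and Pcdh18 at -0.0019. With library weights, Cdh8 was at -0.19, Pcdh20 -0.21, Pcdha4 -0.42 and Pcdhgc3 -0.19. Without both libraries numbered 4, Cdh8 was at -0.33, Pcdh20 -0.48, Pcdha4 -0.40 and Pcdhgc3 -0.23. With libraries 1 and 2 of each group only, Cdh8 was at -0.12, Pcdh10 -0.017, Pcdh20 -1.43, Pcdha4 -0.57, Pcdhb17 -0.13 and Pcdhgc3 -0.25. With voom and no control 4, Cdh8 was at -0.34, Pcdh18 -0.017, Pcdh20 -0.13, Pcdha4 -0.42 and Pcdhgc3 -0.26. Leaving out 1 library moved Pcdh11x between -0.38 and 0.29, Pcdh8 between -0.36 and 0.044, Cdh8 between -0.37 and 0.36, Pcdh18 between -0.061 and 0.11, Pcdh10 between -0.14 and 0.39, Pcdh20 between -0.074 and 0.93, Cdh24 between -0.21 and 0.020, Pcdha4 between -0.40 and 1.15, and Pcdhgc3 between -0.26 and 0.14. In control 4, with 15515139 estimated counts, low members carry the largest counting error.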
